A study of Mus musculus with 6 samples.

Results

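The genes described here are the extracellular and membrane part of the Wnt pathway in embryonic mouse pancreas: the Wnt ligands, the proteins that release them, their receptors, and the secreted proteins that block or amplify them. They were taken by name from the protein-coding genes of the count table (every Wnt, Fzd, Sfrp, Dkk, Rspo and Lgr4 to Lgr6 symbol, with Lrp5, Lrp6, Ror1, Ror2, Ryk, Porcn, Wls and Wif1). The rule used no measured values, though the genes were chosen with earlier results of these data known. The rule gave 52 of 49671 genes, made up of 19 ligands, 10 Frizzled receptors, 2 co-receptors, 3 other receptors, 9 secreted inhibitors, 4 R-spondins, 3 Lgr receptors and 2 genes of ligand secretion. RNA came from pancreata of C57BL/6J mouse embryos at 14.5 days post coitum, in 3 control libraries and in 3 libraries treated with AMI-5 at 10 µM. The compound AMI-5 blocks enzymes that methylate arginine and lysine residues of proteins, and the study asked what it does to differentiation of the pancreas. The labels do not say what the controls received, or whether the libraries of a group came from separate cultures, animals or pools, so p-values measure only the spread between these libraries, which may be technical. Per the labels, libraries marked A were made with an earlier version of the kit. The control titles carry the mark A and the AMI-5 titles Am, so that, read literally, kit and treatment cannot be told apart in any difference below.

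Wnt ligands are lipid-modified secreted proteins. The acyltransferase Porcn adds the lipid and the carrier Wls takes the ligand to the cell surface, where it binds a Frizzled receptor. With the co-receptors Lrp5 or Lrp6 this stabilizes beta-catenin, which acts with TCF and LEF factors on target genes, while Ror and Ryk receptors take part in signalling that does not use beta-catenin. Secreted Frizzled-related proteins (Sfrp) and Wif1 bind ligands, Dickkopf proteins such as Dkk1 block the co-receptors, and R-spondins, through Lgr4 to Lgr6, keep the ligases Rnf43 and Znrf3 from removing Frizzled receptors. In the developing pancreas, Wnt signals pass between mesenchyme and epithelium and are known for roles in growth of the organ and of its acinar cells.

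In the AMI-5 libraries more of these genes were lower than higher, and the changes were mostly small. The filter on low counts kept 42 of the 52 genes, of which 17 were lower and 7 higher with AMI-5 and 18 did not pass the test (threshold of 0.05 on p from edgeR's quasi-likelihood test, adjusted by Benjamini-Hochberg over all genes tested). Of all 17519 genes tested, 54.1% passed, 26.6% lower and 27.5% higher. Of the 14571 protein-coding genes among them, 50.8% passed, 30.6% lower and 20.1% higher. The Wnt genes, with 40.5% lower and 16.7% higher, passed in either direction about as often as these backgrounds. The median log2 fold change (AMI-5 over control) of the 42 genes was -0.12, against -0.060 over protein-coding genes. In 25 of the 42 the control and AMI-5 libraries did not overlap, a share of 59.5%, against 61.9% of all genes tested. A gene can pass the filter through the group in which it is high, as Wnt7a did through AMI-5 and Fzd10, Lgr6 and Wnt10a did through the controls. These counts therefore describe the 42 genes only.

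**Figure D1:**
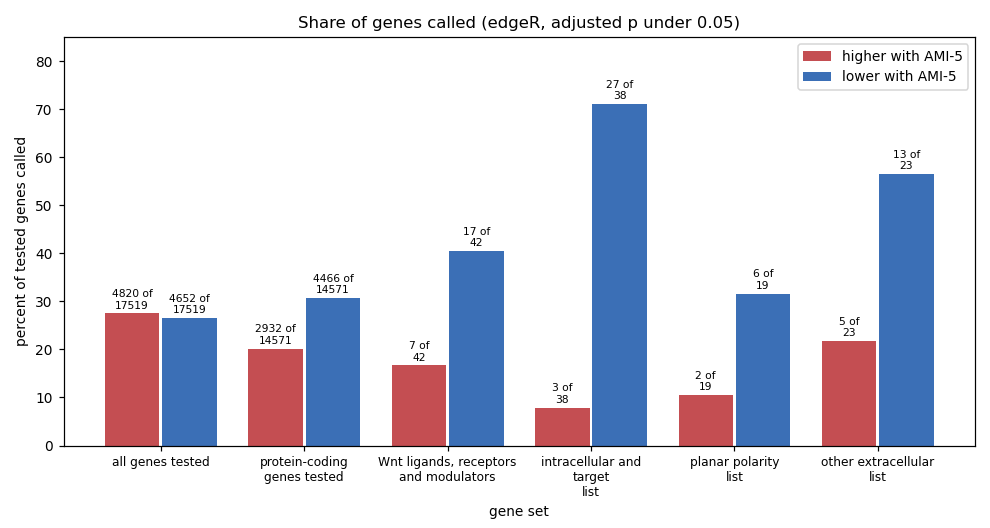
Percent of tested genes (vertical axis) that were higher (red) or lower (blue) with AMI-5 in each gene set (horizontal axis), with counts above the bars. Among the Wnt ligands, receptors and modulators 7 of 42 were higher and 17 of 42 lower, against 4820 and 4652 of 17519 genes in all.

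The median GC content of the longest transcript was 55.8% for the 17 lower genes of the family and 47.8% for the 7 higher ones. Their ranges overlapped (40.3% to 63.8% and 42% to 56.5%), and the median of genes that did not pass was 52.6%. When trends with GC content and gene length were removed from each library over protein-coding genes, 9 of the 42 genes were higher and 10 lower. Higher genes made up 47.4% of these calls, against 29.2% before. Under that setting 36.9% of the calls over all protein-coding genes were higher, so the family's calls leaned no more to lower than the background. As shares of genes tested, the background was 15.5% higher and 26.5% lower. Gene counts summed to 12445425 to 13321899 per control library and 22894312 to 24805188 per AMI-5 library. The tissue label held, with the pancreatic transcription factor Pdx1 at a mean of 90 and 57.3 CPM and the acinar enzyme Cpa1 at 6520 and 8210 CPM in control and AMI-5 libraries. CPM are counts scaled to library size after TMM adjustment, which allows for differences in library composition. In bulk tissue, fewer cells of a type and less RNA per cell cannot be told apart. Summed levels of 10 mesenchyme markers were 9338 to 9786 CPM in controls, and 8768 to 10090 CPM under AMI-5, where 5 of the 10 were lower and 1 higher. Summed levels of 9 epithelial markers were 2913 to 3294 and 2617 to 2875 CPM, with 6 lower and 1 higher. Of 6 acinar markers 4 were higher and none lower. The 6 summed to 7503 to 10500 CPM in controls and 21730 to 24700 CPM with AMI-5. The 4 were the enzyme genes Cpa1, Cel, Amy2a5 and Prss2. The transcription factors Ptf1a (means of 74.5 and 70.1 CPM in control and AMI-5 libraries) and Rbpjl (316 and 218 CPM) did not pass. The 5 leukocyte markers summed to 131 to 158 and 185 to 219 CPM. Erythroid markers summed to 7.94 to 16.3 CPM in controls and 68.7 to 209.7 CPM with AMI-5. AMI-5 replicate 2 stood apart in liver transcripts, with albumin (Alb) at 596 CPM against 7.18 to 17.6 CPM in the other libraries, and without it 7 of the Wnt genes were higher and 15 lower. Summed levels were lower without overlap for 4 smooth muscle markers (95.2 to 104.6 CPM in controls, 73.1 to 75.3 under AMI-5), for 6 markers of neural crest, glia and neurons (200.8 to 208.9, 154.5 to 178.3) and for 2 of the spleen primordium (8.19 to 8.60, 4.10 to 5.48). No marker of these lists was at 0 in every library, and the part of these shifts in the results was not tested.

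**Figure D2:**
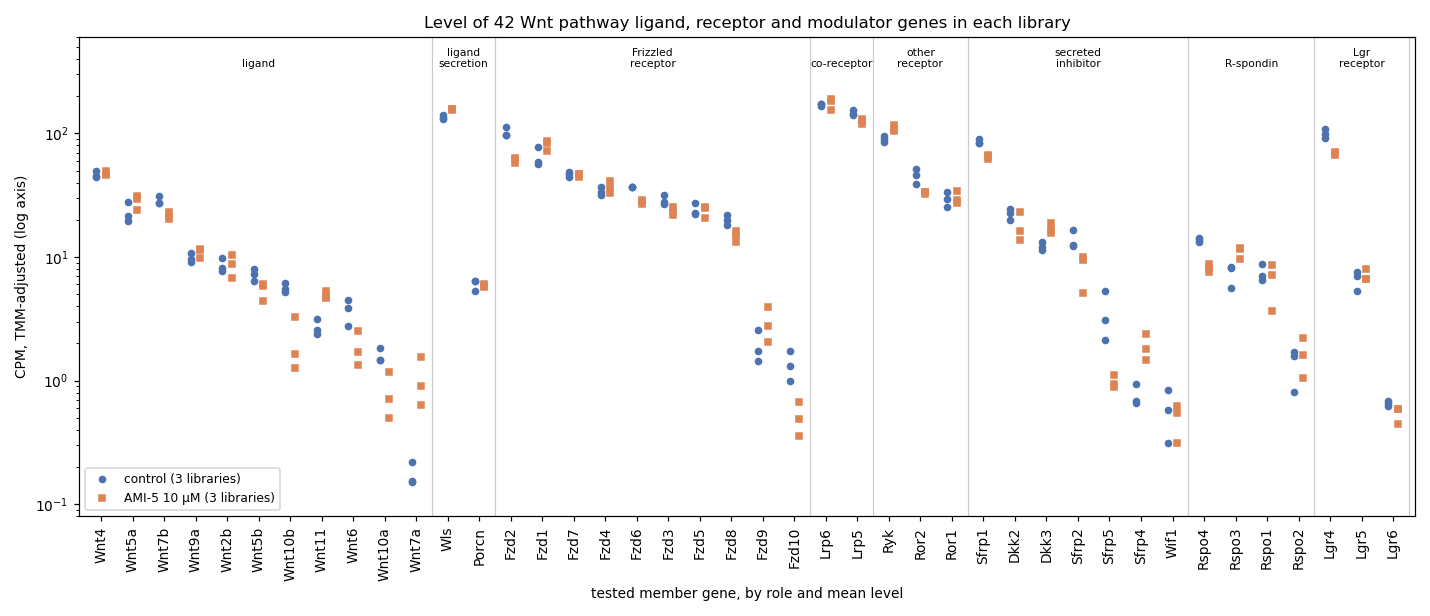
CPM on a log axis (vertical) of the 42 tested genes (horizontal, by role and mean level) in each of the 3 control libraries (blue circles) and 3 AMI-5 libraries (orange squares). The plotted values run from 0.152 CPM for Wnt7a in a control library to 189 CPM for Lrp6 in an AMI-5 library.

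The promoters of the 2 ligands that rose most and of the ligand and the inhibitor that fell most are shown because these genes moved in opposite directions and because beta-catenin acts on promoters through TCF sites. RefSeq windows of 300 bases (GRCm38.p6, from 250 bases before to 50 bases after an annotated start) were found for 34 of the 52 genes. They were searched on both strands for the TCF words, which were CTTTGAA with its variants CTTTGAT as well as CTTTGTA as well as CTTTGTT, and for the GC box GGGCGG, which Sp-family factors bind. The TCF words do not contain the GC box, and neighbouring matches may run together in capitals. Capitals mark the matches. Wnt7a and Wnt11 were higher with AMI-5, Sfrp5 and Wnt10b lower. The windows are chr6:91411304-91411603 (minus strand), chr7:98834862-98835161 (plus strand, the upstream of 2 annotated starts), chr19:42202203-42202502 (minus strand) and chr15:98778101-98778400 (minus strand).
Wnt7a: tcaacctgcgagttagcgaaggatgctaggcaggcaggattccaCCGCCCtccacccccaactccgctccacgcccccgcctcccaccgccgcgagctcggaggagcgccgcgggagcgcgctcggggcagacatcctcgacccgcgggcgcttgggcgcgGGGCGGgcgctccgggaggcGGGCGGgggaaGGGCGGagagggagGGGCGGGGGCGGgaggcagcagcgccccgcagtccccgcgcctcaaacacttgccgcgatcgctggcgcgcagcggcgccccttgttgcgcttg
Wnt11: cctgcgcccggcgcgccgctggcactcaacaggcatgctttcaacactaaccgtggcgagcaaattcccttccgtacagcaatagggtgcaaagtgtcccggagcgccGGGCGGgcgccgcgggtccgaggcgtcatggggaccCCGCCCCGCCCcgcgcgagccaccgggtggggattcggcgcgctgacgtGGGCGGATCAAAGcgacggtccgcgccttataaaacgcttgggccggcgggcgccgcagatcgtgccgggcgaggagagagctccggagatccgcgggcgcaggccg
Sfrp5: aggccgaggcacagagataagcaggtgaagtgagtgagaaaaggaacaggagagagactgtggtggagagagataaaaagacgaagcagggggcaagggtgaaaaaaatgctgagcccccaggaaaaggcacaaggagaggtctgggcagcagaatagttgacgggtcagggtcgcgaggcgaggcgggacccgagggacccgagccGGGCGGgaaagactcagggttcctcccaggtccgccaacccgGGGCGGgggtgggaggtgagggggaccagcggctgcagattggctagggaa
Wnt10b: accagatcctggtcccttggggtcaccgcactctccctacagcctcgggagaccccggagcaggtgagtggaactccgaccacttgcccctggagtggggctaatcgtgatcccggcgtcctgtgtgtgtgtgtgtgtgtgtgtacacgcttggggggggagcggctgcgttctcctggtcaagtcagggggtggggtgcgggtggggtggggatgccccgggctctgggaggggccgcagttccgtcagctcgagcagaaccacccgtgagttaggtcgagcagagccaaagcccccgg
The Wnt7a window holds 6 GC boxes, the Wnt11 window 4 and the Sfrp5 window 2. A TCF word occurs in the Wnt11 window alone of these, at -51 relative to the annotated start and read on the opposite strand. The Wnt10b window holds neither word, but a run of alternating G and T. Across the 34 genes, 5 had a TCF word in a window (14.7%), against 16.9% of all 32851 windows. A GC box was found for 26 of the 34 (76.5%), against 35.7% of all windows. The shares of the 34 genes count a match in any of their 37 windows, while the background counts single windows. Windows were not matched for GC content, so these shares are not a measured trait of the family. Among genes with a window, TCF words were found for 1 of 9 lower genes (Wnt5b) and 1 of 4 higher genes (Wnt11). A match here is a run of letters and not a measured binding site. Exons of Fzd5, Sfrp2, Rspo3, Wnt11, Wnt5a and Wnt7b overlap a gene on the other strand, so their reads are uncertain to the extent that counting ignored strand. The overlap was largest for Fzd5 (17.8% of its length), Sfrp2 (16.1%) and Rspo3 (13.1%). Those partners held at most 58 reads in either group, which does not bound reads that counting gave to neither gene.

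Among the ligands, Wnt10b, Wnt6, Wnt10a, Wnt7b and Wnt5b were lower with AMI-5, Wnt11 and Wnt7a were higher, and Wnt4, the ligand with the highest level per length, did not pass the test. Of 19 ligands, 11 passed the filter. Wnt4, known for its role in urogenital development, was at 49.8, 45.6 and 44.6 CPM in control replicates 1 to 3 and at 49.4, 46.6 and 46.0 CPM under AMI-5, and the groups overlapped (log2 fold change of 0.019 with an SE of 0.065, adjusted p = 0.822). It passed as higher only with GC and length trends removed (0.23, adjusted p = 0.0153, and 0.23 with the replicate block as well).

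Wnt10b, a ligand that signals through beta-catenin, had the largest fall of the ligands. Its levels were 5.19, 6.19 and 5.53 CPM in controls, against 1.26, 1.65 and 3.29 CPM under AMI-5. Every AMI-5 library lay below every control, with replicate 3 the nearest to them. The log2 fold change was -1.44 (SE 0.31, adjusted p = 0.00277), and it ranged from -1.94 to -1.17 over the alternatives. Wnt6 was at 3.88, 2.77 and 4.47 CPM in controls, against 1.71, 1.34 and 2.53 CPM under AMI-5 (log2 fold change of -0.99 with an SE of 0.27, adjusted p = 0.00835). Its call ended with GC and length trends removed (-0.63, adjusted p = 0.0774). Wnt10a was at 1.47, 1.46 and 1.82 CPM in controls, against 0.494, 0.713 and 1.18 CPM under AMI-5, again with AMI-5 replicate 3 the nearest to the controls (log2 fold change of -0.98 with an SE of 0.33, adjusted p = 0.0251). Of the 17 alternatives, 6 ended that call, including the fits without control replicate 3 (-0.87), without AMI-5 replicate 1 (-0.72) and without AMI-5 replicate 2 (-0.88), with DESeq2 (-0.97) and with the trends removed (-0.53). Wnt6 and Wnt10a lie on the same strand of chromosome 1 (74771892 to 74785322 and 74791516 to 74804179, mm10) with 6193 bases between them. Wnt10b (chromosome 15, 98771753 to 98778150) has Wnt1 as its neighbour, 11706 bases away on the other strand, which gave 1 read in all controls and 2 with AMI-5.

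Wnt7b, a ligand made by epithelia, ranked below Wnt4 per length. It was at 31.1, 27.3 and 27.5 CPM in controls, against 23.2, 21.0 and 20.1 CPM under AMI-5, without overlap (log2 fold change of -0.42 with an SE of 0.088, adjusted p = 0.00176). With GC and length trends removed it was at -0.072 (adjusted p = 0.563). Its paralogue Wnt7a, known from limb and nervous system patterning, went the other way from a level near the limit of detection. It gave 2, 3 and 2 reads in the controls and 20, 35 and 15 reads with AMI-5, which is 0.155, 0.219 and 0.152 against 0.897, 1.56 and 0.634 CPM. All AMI-5 libraries lay above all controls, and the highest was AMI-5 replicate 2, the library with liver transcripts. The log2 fold change was 2.5 (SE 0.52, adjusted p = 0.00164). The ratio of summed rates was 5.45, with a 95% exact binomial (Clopper-Pearson) interval of 2.51 to 14.1 that covers counting error only. Without AMI-5 replicate 1 or 2 the gene did not pass the filter and was not tested.

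Wnt11, a ligand of beta-catenin-independent signalling, was higher. It stood at 2.40, 3.13 and 2.58 CPM in controls, against 4.62, 5.35 and 4.73 CPM under AMI-5, without overlap (log2 fold change of 0.85 with an SE of 0.18, adjusted p = 0.00176), and was called in all 17 alternatives. Wnt5a, the best known ligand of that kind and a mesenchymal product in many organs, was at 19.5, 21.4 and 28.0 CPM in controls, against 29.5, 31.0 and 24.2 CPM under AMI-5. The groups overlapped through control replicate 3 and AMI-5 replicate 3, and the gene did not pass (log2 fold change of 0.30 with an SE of 0.14, adjusted p = 0.106). It passed as higher without control replicate 3 (0.46, adjusted p = 0.00672), without AMI-5 replicate 3 (0.41, adjusted p = 0.0279) and with no filter. Its paralogue Wnt5b was at 7.98, 6.41 and 7.35 CPM in controls, against 6.01, 4.41 and 5.87 CPM under AMI-5. These levels did not overlap, but the log2 fold change of -0.41 (SE 0.16, adjusted p = 0.0497) lost its call in 13 of 17 alternatives, among them without each single library except control replicate 2. Without AMI-5 replicate 2 it was at -0.26 (adjusted p = 0.201). Wnt9a (log2 fold change 0.15, adjusted p = 0.309) and Wnt2b (0.020, adjusted p = 0.931) did not pass.

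The other 8 ligands stayed below the filter. Wnt3 gave 30 reads in all controls and 32 with AMI-5, Wnt9b 21 and 23, Wnt16 9 and 11, and Wnt2 2 and 11. The ratio of rates for Wnt2 was 3.00, with a 95% interval of 0.655 to 27.9. Wnt3a, Wnt8a and Wnt8b had no read in any library, which allows up to 0.241 CPM in the shallowest library and 0.121 CPM in the deepest.

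Levels of different genes can be compared only per length, here as CPM per kilobase of merged exon. On that scale Wnt4 was at 11.1 ± 0.657 in controls and 11.3 ± 0.428 with AMI-5, and Wnt7b at 6.49 ± 0.479 and 4.86 ± 0.360 (SD, n = 3). Wnt9a (2.96 ± 0.253), Wnt5a (2.94 ± 0.573) and Wnt5b (2.73 ± 0.297) followed in controls within each other's spread, and Wnt10b (2.42 ± 0.218) overlapped Wnt5a and Wnt5b but not Wnt9a. With AMI-5, Wnt5a (3.61 ± 0.458) and Wnt9a (3.29 ± 0.299) lay above Wnt5b (2.05 ± 0.334) and Wnt10b (0.885 ± 0.463). All 19 ligands summed to 34.2 ± 1.26 CPM per kilobase in controls and 31.1 ± 1.06 with AMI-5. Of that sum Wnt4 took 32.6% ± 1.75 and 36.3% ± 0.289, and Wnt10b 7.09% ± 0.912 and 2.88% ± 1.59.

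**Figure D3:**
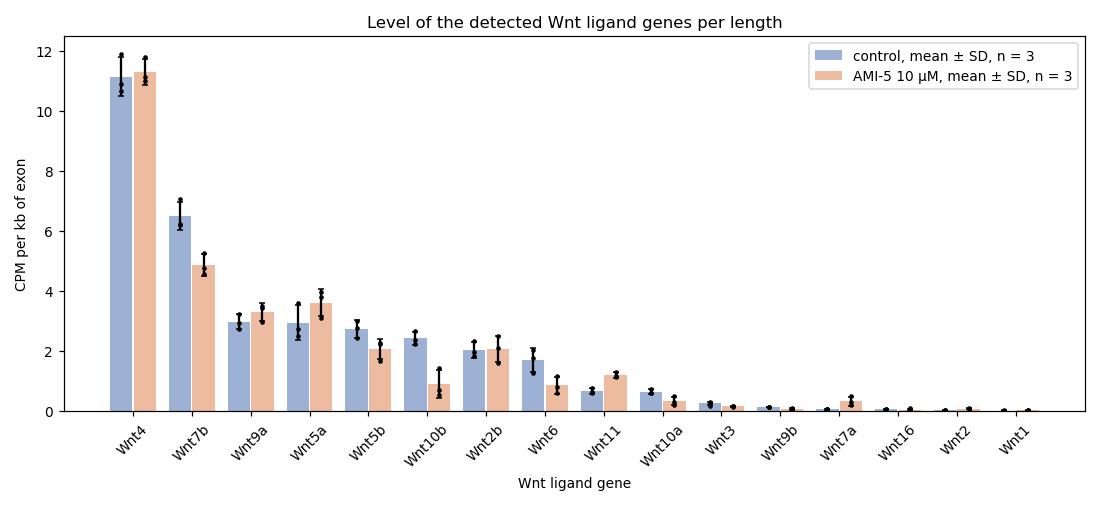
CPM per kilobase of exon (vertical axis) of the 16 ligand genes with any read (horizontal axis), as mean ± SD of 3 libraries for control (blue) and AMI-5 (orange), with each library as a point. Wnt4 and Wnt7b have the highest levels in both groups, and Wnt10b goes from 2.42 to 0.885.

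Of the genes of ligand secretion, Wls was slightly higher and Porcn did not pass. Wls was at 134, 131 and 141 CPM in controls, against 157, 153 and 157 CPM under AMI-5, without overlap (log2 fold change of 0.20 with an SE of 0.054, adjusted p = 0.00717). Its call ended with libraries scaled by totals alone (0.11, adjusted p = 0.138) and with GC and length trends removed (0.0090, adjusted p = 0.914). Porcn was at 5.35, 6.41 and 6.37 CPM in controls, against 6.06, 5.75 and 5.79 CPM under AMI-5, within the range of the controls (log2 fold change -0.044, adjusted p = 0.814).

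All 10 Frizzled receptors passed the filter, and 5 were lower and none higher with AMI-5, where 30.6% of protein-coding genes were lower and 20.1% higher. Fzd2, the Frizzled with the highest level in controls at 27.9 ± 2.42 CPM per kilobase, fell more than any other but the scarce Fzd10. It went from 98.0, 96.3 and 112 CPM to 57.3, 63.6 and 62.6 CPM, with a wide gap between the groups (log2 fold change of -0.74 with an SE of 0.072, adjusted p = 4.34e-06). Fzd1, the next per length, was at 59.0, 56.8 and 77.1 CPM in controls, against 71.5, 83.3 and 86.6 CPM under AMI-5. Control replicate 3 lay inside the AMI-5 range, and the gene did not pass (log2 fold change of 0.32 with an SE of 0.13, adjusted p = 0.0604). It passed as higher in 11 of 17 alternatives, including that without control replicate 3 (0.47, adjusted p = 0.000818), without AMI-5 replicate 1 (0.41, adjusted p = 0.0416) and with GC and length trends removed (0.53, adjusted p = 0.0105). With AMI-5, Fzd1 stood at 19.2 ± 1.90 and Fzd2 at 16.7 ± 0.925 CPM per kilobase, levels that overlapped. Fzd7 was at 46.7, 44.2 and 48.3 CPM in controls, against 46.8, 46.9 and 44.0 CPM under AMI-5, levels that overlapped (log2 fold change -0.016, adjusted p = 0.847).

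Fzd6, a receptor with a known role in the planar polarity of epithelia, was at 37.0, 36.6 and 36.9 CPM in controls, against 28.2, 28.8 and 26.8 CPM under AMI-5, and the spread within either group was small beside the gap (log2 fold change of -0.40 with an SE of 0.068, adjusted p = 0.000369). Fzd8 was at 18.1, 19.8 and 21.9 CPM in controls, against 15, 13.3 and 16.2 CPM under AMI-5 (log2 fold change of -0.43 with an SE of 0.11, adjusted p = 0.00505). Fzd3, which guides axons, was at 27.7, 31.6 and 26.6 CPM in controls, against 21.7, 23.7 and 25.3 CPM under AMI-5 (log2 fold change of -0.28 with an SE of 0.092, adjusted p = 0.0224). The call on Fzd3 ended in 5 of 17 alternatives, which were the fits without control replicate 2 (-0.21), without AMI-5 replicate 1 (-0.21) and without AMI-5 replicate 2 (-0.26), DESeq2 and the fit over protein-coding genes alone, while the value was -0.59 with GC and length trends removed. Fzd10 was at 1.32, 1.75 and 0.985 CPM in controls, against 0.359, 0.490 and 0.676 CPM under AMI-5, from 54 and 35 reads in all (log2 fold change of -1.40 with an SE of 0.34, adjusted p = 0.00461). Fzd4 (0.11, adjusted p = 0.322), Fzd5 (-0.036, adjusted p = 0.789) and Fzd9 (0.61, adjusted p = 0.100) did not pass. Fzd9 passed as higher in 5 of 17 alternatives, including that without control replicate 1 (0.86) or AMI-5 replicate 2 (0.83).

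**Figure D4:**
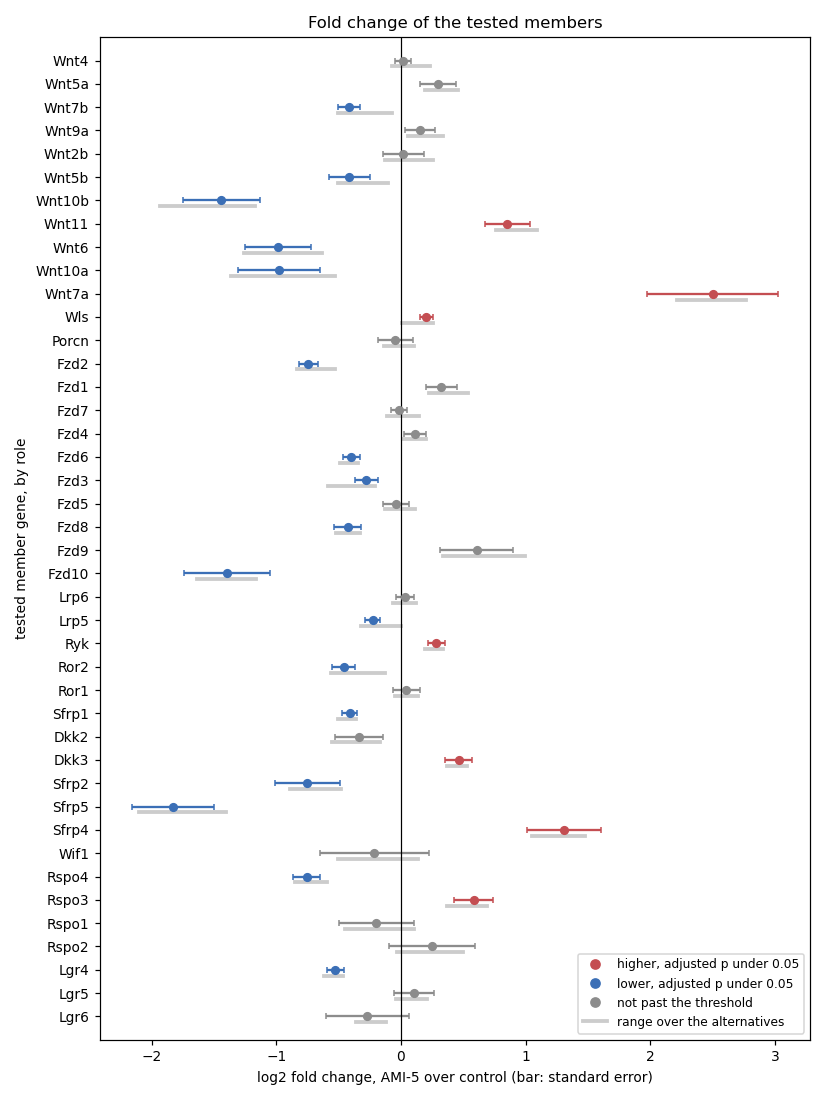
Log2 fold change of AMI-5 over control (horizontal axis) with its standard error for the 42 tested genes (vertical axis, by role), red for higher, blue for lower and grey for not past the threshold, with the range over the alternative settings as a pale bar. Sfrp5 at -1.83 and Wnt7a at 2.5 are the ends of the range, and Wnt7b, Lrp5 and Wls have pale bars that reach close to or across 0.

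Of the co-receptors, Lrp5 was slightly lower and Lrp6 did not pass. Lrp5 was at 154, 142 and 144 CPM in controls, against 120, 132 and 125 CPM under AMI-5, without overlap (log2 fold change of -0.23 with an SE of 0.060, adjusted p = 0.00692). Removal of GC and length trends brought it to -0.0018 (adjusted p = 0.984). Lrp6 was at 172, 174 and 168 CPM in controls, against 154, 189 and 181 CPM under AMI-5, where the AMI-5 libraries lay on both sides of the controls (log2 fold change of 0.030 with an SE of 0.072, adjusted p = 0.745).

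The receptors outside the Frizzled family gave values in both directions. Ryk, a Wnt receptor of the tyrosine kinase fold without kinase activity, was at 95.5, 84.5 and 90.6 CPM in controls, against 117, 109 and 104 CPM under AMI-5 (log2 fold change of 0.28 with an SE of 0.066, adjusted p = 0.00345), and was called in all 17 alternatives. Ror2, a receptor of Wnt5a, was at 51.6, 45.8 and 39.1 CPM in controls, against 33.4, 32.3 and 33.6 CPM under AMI-5, where the 3 treated libraries lay close together below the spread controls (log2 fold change of -0.46 with an SE of 0.091, adjusted p = 0.00111). It was at -0.14 with GC and length trends removed (adjusted p = 0.277). Ror1 was at 25.5, 29.4 and 33.3 CPM in controls, against 29.0, 34.5 and 27.5 CPM under AMI-5, and the groups overlapped (log2 fold change 0.044, adjusted p = 0.762).

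Of 9 secreted inhibitors, 7 passed the filter. Of these, 3 were lower (42.9%) and 2 higher (28.6%), beside 30.6% and 20.1% of protein-coding genes. The Sfrp genes moved both ways: Sfrp1, Sfrp2 and Sfrp5 were lower and Sfrp4 was higher. Sfrp1, the inhibitor with the highest level per length, was at 83.8, 82.9 and 90.9 CPM in controls, against 65.3, 62.0 and 66.3 CPM under AMI-5, without overlap (log2 fold change of -0.41 with an SE of 0.060, adjusted p = 0.000116). Sfrp5, known from foregut endoderm, had the largest fall of all 42 genes. It was at 3.10, 2.11 and 5.30 CPM in controls, against 0.942, 1.11 and 0.887 CPM under AMI-5, so that the treated libraries lay close together below controls that differed among themselves (log2 fold change of -1.83 with an SE of 0.33, adjusted p = 0.000621). Without control replicate 3, the highest, it was at -1.40 and still passed. Sfrp2 was at 12.5, 12.3 and 16.7 CPM in controls, against 9.51, 10.02 and 5.15 CPM under AMI-5 (log2 fold change of -0.75 with an SE of 0.26, adjusted p = 0.0428). Its call ended in 9 of 17 alternatives, among them the fits without each single control (-0.82, -0.83 and -0.60 without replicates 1, 2 and 3) or AMI-5 replicate 1 (-0.86), with the replicate block (-0.78, adjusted p = 0.105) and with the trends removed (-0.70). Without AMI-5 replicate 3, the lowest library, it was at -0.49 and passed (adjusted p = 0.0194).

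Sfrp4 was at 0.930, 0.656 and 0.682 CPM in controls, against 1.79, 2.36 and 1.48 CPM under AMI-5, from 30 and 128 reads in all, without overlap (log2 fold change of 1.31 with an SE of 0.30, adjusted p = 0.00278). Frzb, the member of this family whose name falls outside the choice of genes, is closest to Sfrp4 by sequence and was also higher, at 12.6, 13.3 and 15.8 CPM in controls, against 25, 23.7 and 24.9 CPM under AMI-5 (log2 fold change of 0.82 with an SE of 0.098, adjusted p = 2.43e-05). Dkk3, a Dickkopf relative that does not bind the co-receptors as Dkk1 does, was at 13.3, 12.1 and 11.4 CPM in controls, against 15.6, 16.4 and 18.8 CPM under AMI-5, without overlap (log2 fold change of 0.46 with an SE of 0.11, adjusted p = 0.00334). Dkk2 was at 24.6, 20.0 and 22.5 CPM in controls, against 16.2, 23.2 and 13.7 CPM under AMI-5, where AMI-5 replicate 2 lay among the controls (log2 fold change of -0.34 with an SE of 0.19, adjusted p = 0.179). It passed as lower without that library (-0.56, adjusted p = 0.00201) and with no filter (-0.32, adjusted p = 0.00733). Wif1 did not pass (-0.21, adjusted p = 0.701). Dkk1, the classic blocker of Lrp5 and Lrp6, gave 1 read in all controls and 6 with AMI-5 (ratio of rates 3.27, 95% interval 0.397 to 151), and Dkk4 gave none.

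Of the R-spondins, Rspo4 was lower, Rspo3 was higher and Rspo1 and Rspo2 did not pass. Rspo4 was at 14.3, 13.7 and 13.2 CPM in controls, against 7.54, 8.15 and 8.70 CPM under AMI-5, a gap far wider than the spread of either group (log2 fold change of -0.76 with an SE of 0.11, adjusted p = 0.000102). Rspo3 was at 8.21, 8.23 and 5.61 CPM in controls, against 11.8, 11.6 and 9.59 CPM under AMI-5, without overlap (log2 fold change of 0.58 with an SE of 0.16, adjusted p = 0.00822). It was at 0.37 with GC and length trends removed (adjusted p = 0.0676). Rspo1 was at 6.97, 6.49 and 8.79 CPM in controls, against 8.62, 7.13 and 3.67 CPM under AMI-5, where AMI-5 replicate 3 was the lowest library (log2 fold change of -0.20 with an SE of 0.30, adjusted p = 0.605). Its sign turned without that library (0.10), and it was at -0.45 without AMI-5 replicate 1. Rspo2 was at 0.25 (adjusted p = 0.570). Per kilobase, Rspo4 ranked highest of the 4 in controls (5.80 ± 0.243), while with AMI-5 Rspo3 (3.57 ± 0.403), Rspo4 (3.43 ± 0.245) and Rspo1 (3.34 ± 1.31) lay within each other's spread.

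Lgr4 was the R-spondin receptor with the highest level, at 16.9 ± 1.39 CPM per kilobase in controls, and it was lower with AMI-5. It was at 108, 98.8 and 91.7 CPM in controls, against 69.5, 67.4 and 70.2 CPM under AMI-5, without overlap (log2 fold change of -0.53 with an SE of 0.066, adjusted p = 3.67e-05). Lgr5, a stem cell marker and a beta-catenin target in other epithelia, was at 7.59, 5.32 and 6.97 CPM in controls, against 6.69, 8.02 and 6.63 CPM under AMI-5, levels that overlapped (log2 fold change of 0.10 with an SE of 0.16, adjusted p = 0.612). Lgr6 was at 0.620, 0.656 and 0.682 CPM in controls, against 0.583, 0.446 and 0.591 CPM under AMI-5, from 26 and 37 reads in all (log2 fold change of -0.27 with an SE of 0.33, adjusted p = 0.547). Its levels did not overlap, yet the difference was smaller than its standard error.

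Summed over each role, CPM per kilobase went from 84.9 ± 5.47 to 73.1 ± 2.96 for the Frizzled receptors, a fall close in size to that of Fzd2 alone (27.9 to 16.7), from 38.3 ± 3.06 to 30.2 ± 1.92 for the secreted inhibitors and from 17.6 ± 1.42 to 12.5 ± 0.185 for the Lgr receptors (SD, n = 3), and in each of these the AMI-5 libraries lay below the controls. The sum of ligand secretion genes went from 17.4 ± 0.637 to 19.7 ± 0.283, with the AMI-5 libraries above the controls. Sums of co-receptors (27.6 ± 0.689 and 25.7 ± 1.92) and of the other receptors (35.7 ± 1.69 and 37.2 ± 1.54) overlapped between the groups, as did the R-spondins (12.4 ± 0.393 and 10.8 ± 1.63).

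Among other genes of the pathway, more of those inside the cell and of the targets were lower than higher. Of 38 genes of beta-catenin signalling and its feedback, 27 were lower, 3 higher and 8 did not pass, with a median log2 fold change of -0.35, against 30.6% of protein-coding genes lower and 20.1% higher. With GC and length trends removed, 18 of the 38 were lower, where 26.5% of protein-coding genes were. With the replicate block as well, 17 were lower, beside 3604 of 14571 protein-coding genes. This list and those of the next paragraphs were drawn up with earlier results of these data known. Their counts therefore describe the listed genes only and are no test of the pathway. Ctnnb1, which encodes beta-catenin, was at a mean of 1202 ± 37.1 CPM in controls and 1151 ± 16.0 CPM under AMI-5 and did not pass (log2 fold change -0.063, adjusted p = 0.347), except as lower with libraries scaled by totals alone (-0.16). The feedback inhibitor Axin2 (-0.84, adjusted p = 5.34e-06), its paralogue Axin1 (-0.48, and -0.27 with GC and length trends removed), the transcription factor Lef1 (-1.90, adjusted p = 4.12e-06) and the corepressor Tle3 (-0.68) were lower. The kinase Csnk1a1 was higher (0.27, adjusted p = 0.00104). The call on Csnk1a1 ended with GC and length trends removed (0.12, adjusted p = 0.0720).

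Of 19 genes of planar cell polarity and its effectors, 6 were lower and 2 higher (median -0.11), a lower share close to the 30.6% of protein-coding genes. The core component Vangl2 went from 62.5, 62.7 and 71.5 CPM in controls to 33.2, 34.1 and 33.1 CPM under AMI-5 (log2 fold change of -0.97 with an SE of 0.067, adjusted p = 1.97e-07), and the co-receptor Ptk7 was at -0.63 (-0.30 with trends removed). Celsr2 (-0.53) and Scrib (-0.48) were lower as well, but Scrib was at -0.034 with trends removed (adjusted p = 0.620) and Celsr2 at -0.18 (adjusted p = 0.0308). The GTPase Rhoa did not pass (-0.11, adjusted p = 0.0978), but did as lower with trends removed (-0.26, adjusted p = 0.00173).

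Of 27 further extracellular and membrane modulators, 23 were tested, of which 13 were lower and 5 higher (median -0.28), beside the same 30.6% and 20.1% of protein-coding genes. The lower count was 8 with the replicate block and trends removed, where 3604 of 14571 protein-coding genes were lower. The Dickkopf receptor Kremen1 was at -0.50 (adjusted p = 2.53e-05, and -0.26 with trends removed), the glypican Gpc3, a proteoglycan that binds Wnt ligands, at -0.27 (adjusted p = 0.0019) and Igfbp4 at -0.31, the last of these only before trends were removed (-0.11, adjusted p = 0.152). The p24 cargo proteins Tmed2 (1.33, adjusted p = 1.57e-08) and Tmed5 (0.63, adjusted p = 5.53e-06), which take part in export from the endoplasmic reticulum, were higher. Tmed2 shares 22.0% of its 50-base sequences with another annotated gene, so its value is uncertain, and Tmed5 was at 0.18 with trends removed (adjusted p = 0.0566).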

How the data were processed

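The values are read counts per gene for 6 libraries, in 1 table deposited by the authors, with counts not normalized. The submitters' processing notes name featureCounts 1.6.2, the aligner GSNAP, bcl2fastq 2.19.1 and build mm10, and the table's name gives Ensembl release 87. How strand and multi-mapping reads were handled is not stated there. The 92 spike-in entries (1 read) were left out. Symbols, classes and GC content came from GENCODE M21, which placed 99.8% of shared identifiers at an overlapping position. Of the 42 tested genes, 33 share no 50-base sequence with another gene. Antisense partners held at most 58 reads per group, which leaves out any reads counted for neither gene. Genes were fitted in R 4.3.3 with edgeR 4.0.16 over the whole table (TMM, filterByExpr by group, robust quasi-likelihood F test, two-sided, group as the only term), with a threshold of 0.05. Alternatives used DESeq2 1.42.0, limma 3.58.1 voom, other scalings, no filter, protein-coding genes alone, thinning of AMI-5 counts, GC and length trends (splines), a replicate block and each library left out. Every gene of the family that passed the filter is named, with all 6 values where it passed the test at a mean of at least 1 CPM or was among the 3 most abundant of its role. From each other list up to 4 genes with the smallest p and 2 with the largest mean are named. Wnt7a, Fzd10, Frzb and Vangl2 are given in full outside that rule. The genes and lists were chosen with earlier results of these data known. The code was tested on simulated data.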

Additional observations from a re-analysis of the deposited data

How the results depend on the processing

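Of the 24 genes that passed the test, 14 (5 higher and 9 lower) kept their call in each of the 17 alternatives that gave them a value, and 23 kept their sign. Among the 14, Wnt7a had a value in only 15 alternatives, since it fell below the filter without AMI-5 replicate 1 or 2 and was not tried there. Wnt7a and Fzd10 reached the level of the filter in 1 group only, which favours their calls. Lrp5 turned from -0.23 to 0.00025 with the replicate block and GC and length trends removed. Lower genes of the family numbered 10 with GC and length trends removed and 11 with the replicate block added to that (17 in the fit reported). Under these settings, which cover the 14571 protein-coding genes only, 2259 and 2088 genes were higher in all, against 2932 of the same genes in the fit reported (4820 of all 17519). Under the replicate block with trends removed, 17 intracellular and target genes and 8 other extracellular genes were lower, beside 3604 protein-coding genes in all. Scaling by library totals left 1 intracellular and target gene and 1 planar polarity gene higher, and trend removal left 1 planar polarity gene higher with or without the replicate block. With a library left out, 1 to 2 intracellular and target genes and 1 to 2 planar polarity genes were higher, the lowest count coming without control replicate 2 or AMI-5 replicate 1 in both and also without control replicate 3 in the latter. For the family the counts were 7 to 9 higher and 13 to 16 lower. The share of calls over all genes that were higher was 50.9%, against 40.2% with library totals. The protein-coding genes gave 2932 higher against 4466 lower calls as reported, and 2259 against 3867 with trends removed. The replicate block alone gave 8 higher and 16 lower genes of the family. Same-numbered libraries did not deviate together (r of -0.058, -0.038 and -0.048). With 3 libraries per group this cannot show whether they share a litter, day or batch, which the labels do not say. The causes of these changes were not tested. Depth limits the 10 genes below the filter and tested genes with few reads such as Wnt7a, Lgr6, Wif1, Fzd10 and Sfrp4. Lgr6 and Wif1 had a value in 13 of the 17 alternatives. With AMI-5 counts thinned to the control depth, 7 were higher and 16 lower of 40 tested.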
